A study of Mus musculus with 21 samples.

Results

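The earliest response to a high dose of antigen was examined across all genes, by comparing 3 libraries of CD4+ T cells taken 4 h after 80 µg of peptide with 3 libraries of the control group. These are 6 of the 21 libraries of the study, and 13518 of the 47643 genes in the count table could be tested between them. Both groups were splenic CD4+ T cells of Tg4 Tiger Nr4a3-Tocky mice, so every animal carried the same alleles, controls included. Tg4 is a transgenic T cell receptor (TCR) for a peptide of myelin basic protein (MBP), Tiger is a GFP reporter of Il10, and Nr4a3-Tocky is a Timer protein under Nr4a3 control that is blue when new and matures to red. Treated mice received 80 µg of the 4Y MBP peptide subcutaneously, in buffer without adjuvant, and control mice are labelled untreated. Per the study's methods, the 4 h cells were sorted as Blue+Red-, that is, as cells whose Timer was new, while the gate for the control cells is not given in the sources used here. Peptide, injection and gate differ together between the groups and cannot be told apart, and Nr4a3 itself is tied to the sort. The animals' ages are not in the labels; the methods name both sexes and same-sex littermates, and the series describes the 3 libraries of a group as biological replicates. In bulk samples, fewer cells expressing a gene and less of its RNA per cell cannot be told apart.

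A TCR that binds its peptide on an MHC molecule activates the kinases Lck and Zap70 at the membrane. From there, calcium and calcineurin, Ras and MAP kinases, and protein kinase C bring the transcription factors NFAT, AP-1 and NF-kB to the immediate early genes. In a resting CD4+ T cell, a quiescence programme that includes Klf2, Foxo1 and Tcf7 maintains homing receptors and the IL-7 receptor and keeps growth low. Activated cells turn to Myc-driven growth and first cytokines such as IL-2, and copy their DNA only later.

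Library totals were 2352800 to 3278354 counts in the control group and 3197557 to 4333593 counts in the 80 µg 4 h group. The most counted gene, Gm42418, took 24.0 to 24.7% of control counts and 19.7 to 20.7% at 80 µg, and mitochondrially encoded genes took 7.26 to 7.52% and 5.17 to 5.82%. In every library the defining genes of the labelled cells were well counted, with Cd4 at 175 normalised counts (counts divided by each library's size factor) or more and Cd3e at 293 or more. The 20 genes of CD4 T cell identity summed to 21553 to 23122 in control libraries and 12533 to 13048 at 80 µg, with 10 called lower and 1 higher, where 25.1% of all tested genes were called lower. Genes that define other cells of the spleen were summed in the same way. The 14 B cell markers summed to 1456 to 1887 normalised counts in control libraries and 183 to 223 at 80 µg, with 10 of the 13 tested called lower (4 without control replicate 1); without Ighm, the heavy chain of IgM, the sums were 296 to 776 and 95.2 to 138. The 13 macrophage markers summed to 111 to 167 and 24.0 to 77.5 (3 of 13 called lower, near the share over all genes). Of the 8 dendritic cell markers measured, those other than Ccr7, which T cells also make, summed to 225 to 519 and 93.5 to 168. In that list 3 were called lower, Ccr7 among them. The CD8 T cell markers summed to 104 to 160 and 76.5 to 84.5, and the erythroid and platelet markers to 144 to 717 and 84.0 to 347. Among the erythroid and platelet markers, Car2, a carbonic anhydrase, was called higher and 0 to 3 were called lower over the alternatives. The 6 measured NK cell markers stayed at 23.7 or less and the neutrophil markers at 6.94 or less in all 6 libraries, and the dendritic cell factor Zbtb46 had no count in any. Whether these cells contributed to a difference was not tested.

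The transcriptome of the sorted cells differed widely from that of control cells at 4 h. Calls required an adjusted p (Benjamini-Hochberg, DESeq2's Wald test) under 0.05 and a shrunken log2 fold change above 1 or below -1. By this rule 5881 genes, 43.5% of those tested, differed: 2484 were higher after 80 µg (18.4%) and 3397 lower (25.1%). Relative to each library's other counts, the falls went deeper than the rises. The amount of RNA per cell is not known. The median shrunken log2 fold change was 1.86 among the genes called higher and -2.29 among those called lower, and a log2 change beyond 3 was reached by 388 genes upward and 982 downward. Control and 80 µg values did not overlap for 63.9% of all genes tested. Among called genes, which the call itself selects for separation, this held for 98.7% of those higher (2452) and 96.6% of those lower (3280). For called genes named below, non-overlap therefore describes their values and adds no support to the call. All 3 control libraries were at 0 for 125 of the genes called higher, and all 3 libraries at 80 µg were at 0 for 294 of those called lower. The genes called higher took 9.58% of all counts in control libraries and 35.2% at 80 µg, and those called lower went from 22.5% to 4.58%, shares that follow from the call itself. The median over all tested genes was -0.15, and it moved by 0.04 with TMM factors and by -0.16 with library totals as the scaling. Medians of gene lists stand on the same scale, and counts called in a list are to be read beside the 18.4% and 25.1%.

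**Figure D1:**
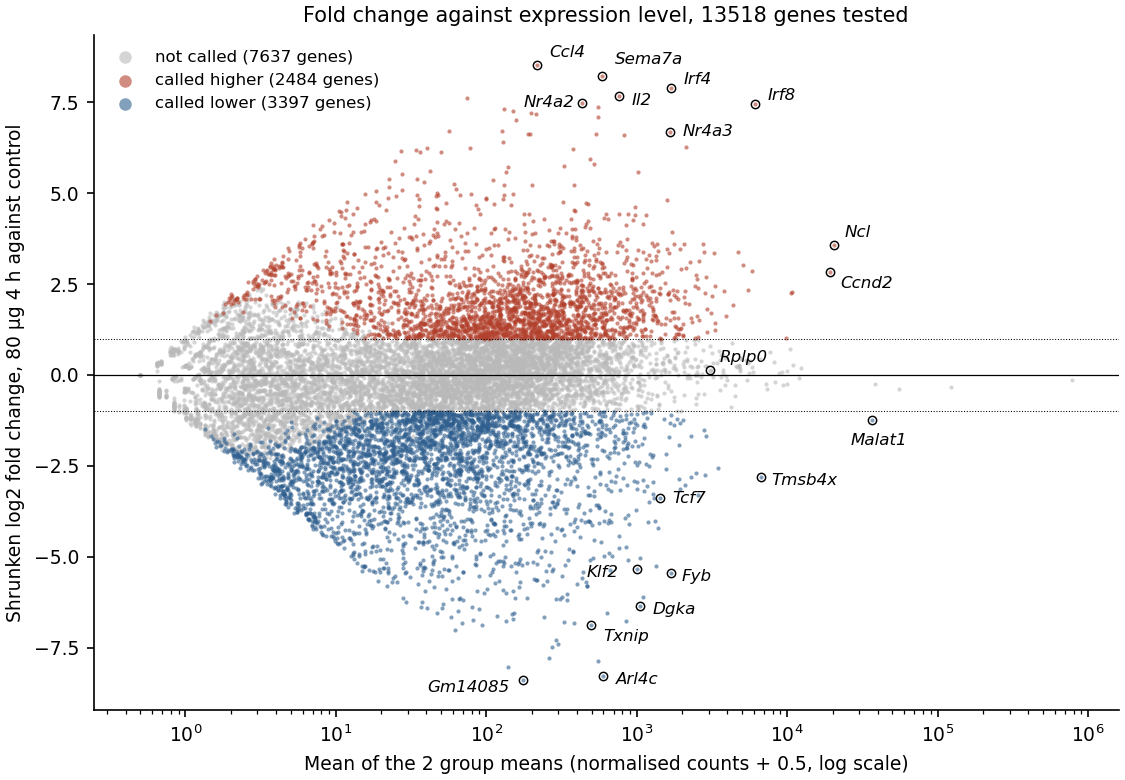
Shrunken log2 fold change of 80 µg 4 h against control (y axis) for each of the 13518 genes tested, against the mean of both group means in normalised counts + 0.5 (x axis, log scale), with dotted lines at log2 changes of 1 and -1. The 2484 genes called higher (red) and 3397 called lower (blue) occur from low to high expression, and named genes are ringed.

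The immediate early genes, which are transcribed without new protein synthesis, included the NR4A family of orphan nuclear receptors. Nr4a1, on chromosome 15 (101254269 to 101274795, plus strand, ENSMUSG00000023034), had 18.6, 26.4 and 64.2 normalised counts in the control libraries and 2213, 1966 and 1846 at 80 µg. Nr4a2 had 4.12, 2.03 and 5.71 in the controls and 697, 982 and 905 after peptide, and Nr4a3, the gene behind the Timer used for sorting, had 37.1, 28.4 and 12.8 in the controls and 3260.5, 3408 and 3227 after peptide. For all 3 receptors the lowest treated library lay far above the highest control. The shrunken log2 changes were 5.58 ± 0.39 (SE, n = 3 and 3) for Nr4a1, 7.49 ± 0.42 for Nr4a2 and 6.68 ± 0.39 for Nr4a3, and all adjusted p-values of DESeq2's Wald test were 2.25e-44 or less.

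Of 31 tested immediate early genes, 19 rose, with a median log2 change of 2.32. Among the AP-1 proteins, which pair up to bind DNA downstream of MAP kinases, Fosl2 went from 17.5, 19.3 and 8.57 to 934, 1048 and 1100.0, Batf from 36.1, 32.5 and 44.3 to 509, 528 and 456 and Junb from 319, 392 and 269.8 to 1575, 1718 and 1687. Fosl1 was at 0 in every control library and was at least 20.5-fold higher at 66.0, 67.8 and 79.7. Fos rose by 1.60 ± 0.48 on the log2 scale, a call lost without control replicate 3 (1.37). Jun (116 ± 31.4 in control libraries and 57.8 ± 22.9 normalised counts at 80 µg, mean ± SD, n = 3) was not called at a log2 change of -0.99 ± 0.33, and was called lower without control replicate 1 or 3 or 80 µg replicate 1 or 2 (-1.07 to -1.20). Jund was not called (656 ± 71.7 and 668 ± 59.0). The stress and growth arrest gene Gadd45b rose from 13.4, 11.2 and 22.8 to 1632, 1731 and 1491 normalised counts, and Cd69, an early activation marker that retains cells in lymphoid tissue, rose 11.9-fold.

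The EGR zinc finger factors split. Egr2 rose from 19.6, 12.2 and 17.1 to 200.2, 262 and 159 normalised counts (3.57 ± 0.36 on the log2 scale). Egr1 had 204, 170.4 and 158 in the controls and 174, 175 and 188 at 80 µg, with overlapping groups and a log2 change of 0.01 ± 0.24 that was not called. Egr3 was near the floor in both groups (1.01 ± 1.76 and 2.51 ± 2.34) and was not called either. Nab1 and Nab2, which bind EGR proteins and restrain them, were not called (log2 changes of 0.05 ± 0.13 and 0.72 ± 0.35).

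The promoter of Egr2 is shown because it is the EGR gene that rose, and a serum response element, the CArG box bound by SRF, is the textbook element of this class. RefSeq lists 5 start sites for Egr2 on GRCm38.p6, and this one, chr10:67537619-67537918 on the plus strand, is 1 of 3 that tied for most matches to the motifs searched. Since the window was chosen for its matches, nothing can be read from their presence. It runs from 250 bases before the start site to 50 after, 5′ to 3′, and the capitals mark the letters CCATATATG, found on both strands at -72 and -71 in overlapping positions. Over the first listed start of each tested gene, which for Egr2 lacks these letters, they occurred in 0 of 1863 promoters of genes called higher and in 1 of 2506 of those called lower. The other form searched, CCTTATATG, occurred in 3 of the 1863 and 0 of the 2506.
Egr2: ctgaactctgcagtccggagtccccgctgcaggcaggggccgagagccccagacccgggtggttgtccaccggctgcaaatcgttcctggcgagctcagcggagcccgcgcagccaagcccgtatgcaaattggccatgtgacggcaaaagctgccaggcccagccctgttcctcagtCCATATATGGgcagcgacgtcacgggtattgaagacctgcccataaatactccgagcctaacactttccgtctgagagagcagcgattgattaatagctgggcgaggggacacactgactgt

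**Figure D2:**
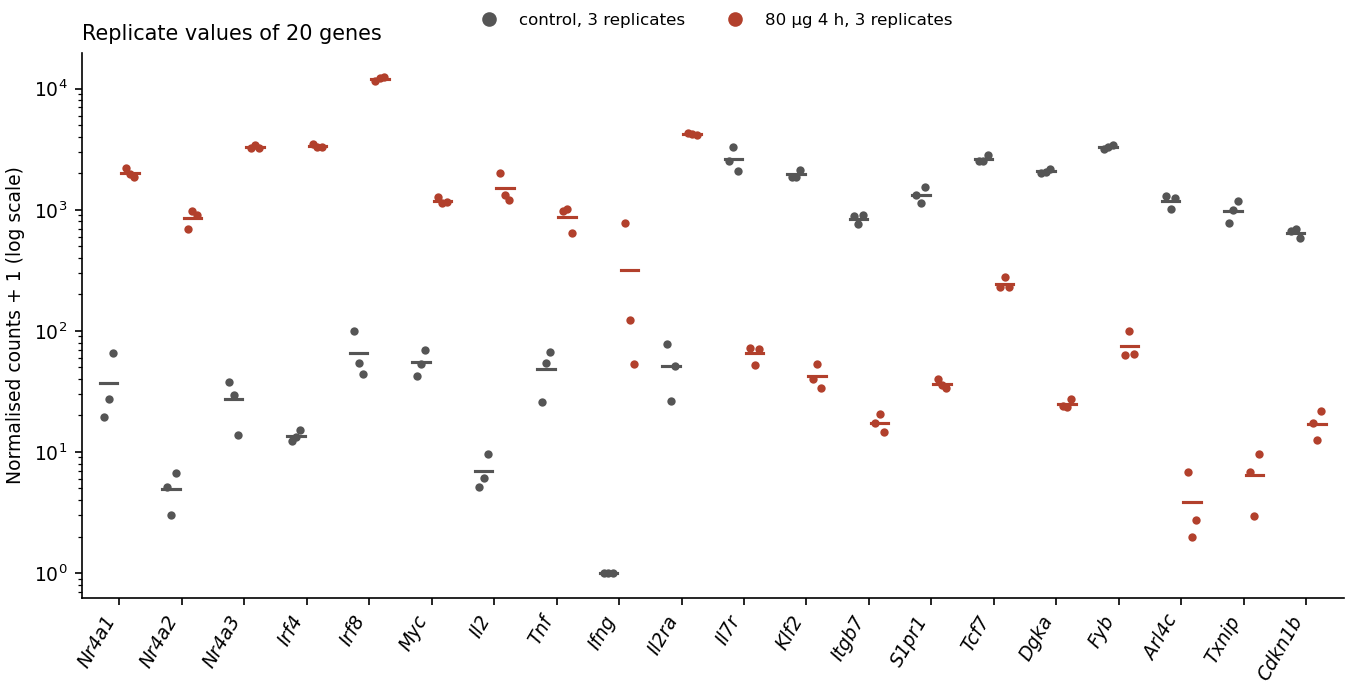
Normalised counts + 1 (y axis, log scale) of 20 genes in the 3 control libraries (grey) and the 3 libraries at 80 µg 4 h (red), with bars at the mean. For each gene shown the groups do not overlap, and the widest spread within a group is that of Ifng at 80 µg.

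In the membrane-proximal TCR machinery more genes fell than rose, while the feedback regulators of MAP kinase and calcineurin were divided. Of 42 proximal signalling genes, 18 fell and 6 rose (median -0.65). Cd4, the coreceptor, fell from 1025, 973 and 1122 to 212, 175 and 273 normalised counts, and Lck, the kinase it carries, from 2117, 2107 and 2060.0 to 434, 403 and 482. The CD3 chains fell as well (Cd3d -1.87 ± 0.12, Cd3e -1.48 ± 0.12 and Cd3g -2.36 ± 0.18 on the log2 scale), as did Thy1 and Cd28, while the receptor chains differed: Trbc1 fell by 1.31 ± 0.08, and Trac was not called (0.38 ± 0.10). Zap70, the kinase recruited to the phosphorylated CD3 chains, went the other way, from 288, 314 and 239.8 to 929, 982 and 926.

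Downstream of the receptor, Dgka, a kinase that removes diacylglycerol and is a known brake on Ras signalling, was the list's deepest fall, from 1992, 2058 and 2171 to 23.1, 22.3 and 26.6. Rasgrp1, which diacylglycerol activates, fell by 3.01 ± 0.14 on the log2 scale, Plcg1, the phospholipase that makes diacylglycerol, by 2.92 ± 0.15, and the Tec-family kinase Txk fell by 4.01 ± 0.17. Among the 6 that rose were Cblb, a ubiquitin ligase that limits TCR signalling (243 ± 14.1 to 1062 ± 29.1 normalised counts), the phosphatase Ubash3b (230.2 ± 29.4 to 1033 ± 102) and the adaptor Sh2d2a, a partner of Lck (241 ± 41.8 to 919 ± 97.6). Within the complex that links protein kinase C to NF-kB, Malt1 rose by 2.31 ± 0.18 and Bcl10 was not called (0.41 ± 0.12).

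Among 25 feedback genes of the MAP kinase and calcineurin pathways, 11 rose and 7 fell (median 0.43, 0.27 to 0.84 over the alternatives). The MAP kinase phosphatases Dusp2 and Dusp5 rose to 2464, 1542 and 2096 and 1412, 1395 and 1499.6 normalised counts from control means of 371 ± 32.4 and 112 ± 4.36, while Dusp10 fell by 4.29 ± 0.51 on the log2 scale. Dusp4 had 2 counts in all in the control libraries and was 46.0-fold (95% counting interval 12.4 to 385) higher. Spry1, an inhibitor of the Ras pathway, went from 4.12, 0 and 1.43 to 458, 466 and 352. The NFAT genes diverged, with Nfatc1 up from 413, 409 and 418 to 1766, 1837 and 1606 and Nfatc2 and Nfatc3 down by 3.47 ± 0.30 and 2.02 ± 0.13. The calcineurin subunits Ppp3ca and Ppp3cc fell by 2.33 ± 0.18 and 3.38 ± 0.33.

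Most of the NF-kB list rose, transcription factors and the inhibitors that they are known to induce alike. Of 27 tested members, 16 rose and 4 fell (among them Cyld, Tnip1 and Ikbkg), with a median log2 change of 1.29. The call of Ikbkg was lost without control replicate 2 (-0.90). Nfkb1 had 443, 459 and 498 normalised counts in the controls and 4308, 4124 and 3712 at 80 µg. Rel, the subunit known for lymphocyte activation, had 231, 185 and 206 in the controls and 1483, 1651 and 1395 at 80 µg, and Relb had 37.1, 53.7 and 41.4 in the controls and 369, 358 and 289.8 at 80 µg. None of these groups overlapped. The inhibitors Nfkbia, Nfkbib and Nfkbid rose by 2.32 ± 0.13, 3.09 ± 0.15 and 4.40 ± 0.17 on the log2 scale, and the ubiquitin-editing enzyme Tnfaip3 by 3.59 ± 0.22. Tnip3, a partner of Tnfaip3, was at 0 in the controls and at 267, 283 and 342 after peptide, at least 85.7-fold higher.

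Nfkbia encodes IkBa, the inhibitor that NF-kB itself is known to induce, and it was among the 10 called genes with the largest gain in CPM, the share of a library's counts scaled to 1000000, from 546 ± 58.4 to 2469 ± 136 CPM (mean ± SD). Its RefSeq promoter, chr12:55492598-55492897 on the minus strand of GRCm38.p6, is printed 5′ to 3′ with the letters GGAAATTCC, an NF-kB site form, in capitals at -29. These letters were found in 0.359% of all 9188 promoters, in 0.537% of those of genes called higher and in 0.2% of those called lower. The forms GGGAATTCC and GGGACTTTC were in 0.0537% and 0.376% of the promoters of genes called higher and in 0.359% and 0.599% of those called lower.
Nfkbia: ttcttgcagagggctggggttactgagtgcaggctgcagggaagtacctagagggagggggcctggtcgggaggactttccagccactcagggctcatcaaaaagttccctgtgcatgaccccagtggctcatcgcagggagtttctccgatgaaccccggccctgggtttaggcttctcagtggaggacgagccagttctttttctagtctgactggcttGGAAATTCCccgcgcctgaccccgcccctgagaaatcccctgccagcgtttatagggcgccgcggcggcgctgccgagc

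Several cytokine transcripts rose from levels near 0. Il2, the T cell growth factor, on chromosome 3 (37120523 to 37125959, minus strand, ENSMUSG00000027720), had 4.12, 5.07 and 8.57 normalised counts in control libraries and 2016, 1322 and 1203 at 80 µg (7.67 ± 0.45 on the log2 scale). Tnf, the founding member of its family, had 24.7, 52.7 and 65.7 in the controls and 971, 1010.2 and 646 at 80 µg. Ifng was at 0 in all 3 controls and at 772, 122 and 52.3 after peptide, at least 90.8-fold higher. This bound rests mainly on 80 µg replicate 1. Il2 and Tnf were of like size in their 3 treated libraries, whereas Ifng in replicate 1 stood well above the other 2.

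In all, 10 of 18 tested cytokine genes rose and 2 fell (Ltb and Il16), with a median of 2.06 (0.92 to 3.20 over the alternatives), or 1.93 with the genes at 0 set to their bound. Il21, the helper cytokine, had 3 counts over the control libraries and 228, 92.0 and 139 normalised counts at 80 µg, 131-fold (95% counting interval 44.6 to 639) higher. Lif, a member of the IL-6 family, was 662-fold (95% counting interval 118 to 26180.0) higher from a single control count, and Il3 at least 4.49-fold higher from 0, a call lost without 80 µg replicate 3 (1.58). Tgfb1 rose by 1.69 ± 0.20 on the log2 scale and Lta by 2.67 ± 0.23, while Ltb, its partner in the membrane-bound trimer, fell by 2.44 ± 0.24. Il10, whose reporter the mice carry, had 3.09, 0 and 9.99 normalised counts in the controls and 6.94, 10.7 and 19.7 at 80 µg. It was not called, and was called higher without control replicate 3 (2.41). Il17a (4.59 ± 0.28 at 80 µg, 0 in the controls) was not called either.

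The promoters of Il2 and Tnf are shown because both genes rose and both are textbook NFAT targets. The promoters of Nr4a1, Nr4a3 and Irf8 were searched as well and held none of the motifs, so those printed are the ones with a match. They lie at chr3:37125905-37126204 and chr17:35201958-35202257, both on the minus strand of GRCm38.p6. The capitals mark the NFAT core GGAAAA, or TTTTCC where it lies on the opposite strand, at -137 and -48 in Il2 and at -78 and -55 in Tnf. A core this short occurred in 20.8% of all promoters searched, in 21.1% of those of genes called higher and in 20.3% of those called lower.
Il2: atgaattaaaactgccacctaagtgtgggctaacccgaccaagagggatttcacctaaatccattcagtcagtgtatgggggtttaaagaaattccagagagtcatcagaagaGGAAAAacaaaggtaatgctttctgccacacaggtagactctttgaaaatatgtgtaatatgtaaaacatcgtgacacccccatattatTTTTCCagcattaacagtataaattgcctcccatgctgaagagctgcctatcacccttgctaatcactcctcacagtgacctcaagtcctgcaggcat
Tnf: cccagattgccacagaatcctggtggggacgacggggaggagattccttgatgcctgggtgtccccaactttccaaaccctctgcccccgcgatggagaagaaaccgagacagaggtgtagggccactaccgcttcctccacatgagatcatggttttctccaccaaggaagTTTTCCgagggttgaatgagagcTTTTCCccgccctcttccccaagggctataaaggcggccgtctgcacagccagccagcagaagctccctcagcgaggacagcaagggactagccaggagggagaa

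Of 8 tested chemokines, 7 rose and Ccl5 fell (median 3.77, or 3.94 with bounds, and 2.23 to 6.72 over the alternatives), and 4 rose without 80 µg replicate 1. Ccl4, an inflammatory chemokine on chromosome 11 (83662584 to 83664683, plus strand, ENSMUSG00000018930), had 0, 1.01 and 0 in the controls, a single count, and 552, 481 and 259.8 at 80 µg, 1108-fold (95% counting interval 198 to 43790.0) higher. This was the largest fitted rise among called genes that averaged 50 normalised counts or more over the 6 libraries. Ccl3, of the same chemokine family, was at 0 in the controls and at 56.7, 63.0 and 24.9 after peptide, a call lost without 80 µg replicate 1 or 2 (2.52 and 2.48), and Xcl1 was 43.4-fold (95% counting interval 11.7 to 363) higher. The interferon-induced ligands of Cxcr3 also rose, with Cxcl9 at 0 in the controls and at 90.3, 48.4 and 23.1 at 80 µg, highest in replicate 1, and Cxcl10 51.2-fold (95% counting interval 8.84 to 2055) higher. Ccl1 was uneven, at 124, 24.2 and 28.3 in the 3 treated libraries against 0 in the controls, and its call was lost without any one of the 3 (1.48 to 1.80). Ccl5, a chemokine of effector and memory cells, went from 55.7, 62.9 and 101 to 52.1, 20.3 and 4.29, a call lost without control replicate 2 or 3 or 80 µg replicate 2 or 3 (-0.99 to -1.40).

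Receptors for IL-2 rose while that for IL-7 fell. Il2ra, the high-affinity chain, had 76.3, 25.4 and 49.96 normalised counts in control libraries and 4308, 4200.4 and 4109 at 80 µg. Il2rb, the signalling chain, had 85.6, 45.6 and 95.6 in the controls and 436, 531 and 559.9 at 80 µg, and the common gamma chain Il2rg, at 1109.6 ± 99.7 and 1019.9 ± 55.2, was not called. Il7r, which maintains naive T cells, fell from 2505, 3272 and 2104 to 71.8, 51.3 and 70.3. The groups did not overlap for Il2ra, Il2rb or Il7r.

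Over the IL-2 and common gamma chain list, 11 of 24 rose and 5 fell (median 0.69). Stat5a, which IL-2 activates, rose by 3.56 ± 0.14 on the log2 scale, and so did the feedback inhibitors Cish (4.32 ± 0.20) and Socs1 (3.40 ± 0.38) and the kinases Pim1 and Pim3 (2.91 ± 0.15 and 3.73 ± 0.21). Jak1, which pairs with several cytokine receptors, was among the 10 called genes losing most CPM (1302 ± 140.2 to 366 ± 12.4). Of 22 receptors for other cytokines, 11 fell and 4 rose (median -1.09). Those of the interferons and TGF-beta fell together: Ifngr1, Ifngr2 and Ifnar1 by 2.83 ± 0.24, 3.17 ± 0.37 and 2.86 ± 0.23, and Tgfbr2 by 3.41 ± 0.27. The IL-12 receptor chains rose, with Il12rb1 from 1.98 ± 0.92 to 34.7 ± 19.1 normalised counts and Il12rb2 122-fold (95% counting interval 21.6 to 4865) higher. An exon of Il12rb2 overlaps Serbp1, itself among the 10 largest gains in CPM, on the opposite strand. The strand setting of the counting is not given in the sources used here, so reads of Serbp1 may enter this fold.

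Of 30 costimulatory receptors and ligands, 15 rose and 5 fell (median 1.52), with receptors of the TNF family among those that rose. Tnfrsf9 (4-1BB) had 18.6, 7.10 and 24.3 in the controls and 785, 687 and 757 at 80 µg, and Tnfrsf4 (OX40) had 48.4, 28.4 and 44.3 in the controls and 633, 616 and 653 at 80 µg. Icos went from 301, 267 and 219.8 to 1435, 1108 and 1246 and Cd40lg, which signals help to B cells, from 265, 233 and 288 to 1859, 1709 and 1569.9. None of these 4 overlapped between groups. Sema7a, a membrane-anchored semaphorin on chromosome 9 (57940112 to 57962865, plus strand, ENSMUSG00000038264), had 4.12, 0 and 2.86 in the controls and 1199, 1132 and 1199 at 80 µg, and the SLAM family members Slamf1 and Slamf7 rose by 4.40 ± 0.15 and 5.93 ± 0.28 on the log2 scale. Cd28 and Sema4d were among those lower (-1.61 ± 0.10 and -1.82 ± 0.18).

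The 17 genes of the coinhibitory list, not all of them receptors, had no common direction. Of these, 6 were higher and 4 lower (median 0.80, from 0 without 80 µg replicate 1 to 1.498 over the alternatives). Ctla4, which competes with Cd28 for its ligands, went from 18.6, 7.10 and 31.4 to 417, 249.9 and 364 normalised counts, and Pdcd1 (PD-1) from 6.18, 3.04 and 7.14 to 146, 213 and 133. The PD-1 ligands Cd274 and Pdcd1lg2 rose by 2.84 ± 0.22 and 3.68 ± 0.47 on the log2 scale and Vsir (VISTA) by 1.79 ± 0.28, while Cd96, Lair1, Cd200r1 and Nt5e were lower. Lag3, Tigit and Havcr2 were near the floor at 80 µg (1.64 ± 1.11, 2.70 ± 4.68 and 3.09 ± 5.35 normalised counts) and were not called, which at this depth does not show that they were unchanged.

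Among helper lineage regulators, the interferon regulatory factors Irf4 and Irf8 had the largest rises. Irf4, known to scale with TCR signal strength, had 11.3, 12.2 and 14.3 in the controls and 3495, 3275 and 3312 at 80 µg. Irf8, best known from myeloid and B cells and located on chromosome 8 (120736358 to 120756694, plus strand, ENSMUSG00000041515), had 99.0, 53.7 and 42.8 in the controls and 11645, 12338 and 12401 at 80 µg, a 186-fold change. Tbx21 (T-bet), the T helper 1 factor, had 9.28, 11.2 and 4.28 in the controls and 848, 751 and 636 at 80 µg. The groups did not overlap for any of the 3.

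Of 39 lineage regulators, 18 rose and 9 fell (median 0.63). Factors of several lineages rose. Rora rose by 3.15 ± 0.50 on the log2 scale, a factor of T helper 17 cells, Eomes by 3.50 ± 0.47, Bhlhe40 by 5.59 ± 0.44, Hif1a by 3.59 ± 0.15, Tox2 by 4.84 ± 0.48 and Maf by 1.39 ± 0.34. Gata3, the T helper 2 factor, fell by 1.39 ± 0.16, and Zbtb7b (ThPOK), which fixes the CD4 fate, by 3.70 ± 0.32. Foxp3 had 56.7, 14.2 and 45.7 normalised counts in the controls and 17.4, 14.5 and 21.4 at 80 µg and was not called (log2 change of -1.05 ± 0.49, called lower without control replicate 2 at -1.42), nor were Bcl6 (0.66 ± 0.26), Prdm1 (-0.67 ± 0.40) and Runx3 (0.51 ± 0.14). Mir155hg, the host transcript of miR-155, had 6.18, 1.01 and 9.99 normalised counts in the controls and 1124, 1159 and 1005 at 80 µg. An exon of it overlaps the annotated Mir155 on the same strand, so its counts stand for the locus.

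The naive and quiescence genes had the lowest median of the 46 lists. Of 40 tested, 30 fell and 2 rose (Slfn2 and Tob2), with a median of -3.07. Klf2, which controls homing receptors, had 1862, 1879 and 2128 normalised counts in the controls and 39.4, 52.3 and 32.6 at 80 µg. Its known target S1pr1, the receptor for exit from lymphoid tissue, had 1322, 1129 and 1532 in the controls and 39.4, 34.9 and 32.6 at 80 µg. Every treated value of both genes lay far below every control value. The Tcf7 and Lef1 pair fell by 3.40 ± 0.13 and 3.26 ± 0.12 on the log2 scale and Foxo1 by 1.56 ± 0.11.

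Txnip, which limits glucose uptake, went from 778, 989 and 1172 to 5.79, 1.94 and 8.57, and Cdkn1b (p27), the CDK inhibitor of resting cells, from 666, 692 and 581 to 16.2, 11.6 and 20.6. Pik3ip1, an inhibitor of PI3 kinase, and Tsc22d3 (GILZ) fell by 5.22 ± 0.32 and 5.34 ± 0.50 on the log2 scale. Arl4c, a small GTPase on chromosome 1 (88673125 to 88702221, minus strand, ENSMUSG00000049866), fell from 1303, 1013 and 1252 to 5.79, 0.97 and 1.71, which is 421-fold, and Ypel3 and Rflnb fell by 7.79 ± 0.52 and 7.87 ± 0.39. Foxp1, Bach2 and Satb1 were not called (0.06 ± 0.11, 0.06 ± 0.19 and 0.62 ± 0.19).

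Of 32 trafficking and adhesion genes, some of them also in the quiescence list, 21 fell and 6 rose (median -1.62, -1.79 to -1.07 over the alternatives). The integrin chains Itgb7 and Itga4, which pair to home to the gut, fell by 5.59 ± 0.25 and 4.97 ± 0.22, the selectin ligand Selplg by 5.10 ± 0.19 and the chemokine receptor Cxcr4 by 5.38 ± 0.61. Ccr7 fell by 2.15 ± 0.15, from 1225 ± 121 to 274 ± 58.4 normalised counts. Cxcr5, the follicular homing receptor, rose from 23.7, 9.13 and 15.7 to 162, 136 and 188, Gpr183 (EBI2) from 408, 353 and 384 to 1236, 1280.4 and 1411, and Icam1 by 3.21 ± 0.26 on the log2 scale. Cd44 was not called (-0.04 ± 0.23).

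Among 13 cytotoxic effector genes 7 rose and 2 fell (median 1.35, 0.745 to 2.17 over the alternatives), among them the proteoglycan core Srgn (407 ± 70.5 to 5109 ± 580.0 normalised counts), the serpins Serpinb9 and Serpinb6b (4.07 ± 0.34 and 4.28 ± 0.29 on the log2 scale) and granzyme B, Gzmb (3.09, 0 and 8.57 to 88.0, 70.7 and 108). Perforin, Prf1, at 8.17 ± 1.00 and 1.74 ± 1.54, was not called. The survival and apoptosis list held 11 higher and 5 lower of 23 (median 0.81, 0.31 to 1.06 over the alternatives), and 8 higher and 7 lower with library totals as the scaling. Bcl2 fell from 1273, 1621 and 1258 to 303, 199 and 264 normalised counts while its relative Bcl2l1 (Bcl-xL) rose from 34.0, 37.5 and 30.0 to 646, 753 and 690.2, and their antagonist Bcl2l11 (Bim) rose 5.24-fold. Bcl2a1b rose by 4.44 ± 0.44 on the log2 scale, though the Bcl2a1 genes are near-identical copies whose reads may be misassigned. Of 18 genes linked to anergy and ubiquitin ligases, 6 rose and 5 fell.

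Myc and the genes of ribosome biogenesis rose together. Myc went from 41.2, 51.7 and 68.5 to 1267, 1139.9 and 1157 normalised counts (4.43 ± 0.23 on the log2 scale). In the Myc network 2 of 10 genes rose and 3 fell, near the 18.4% and 25.1% of all tested genes. Mxd4 and Mxi1 fell by 7.29 ± 0.45 and 2.89 ± 0.44, Mnt rose by 1.54 ± 0.26, and Max, the partner of Myc, was not called (0.63 ± 0.12). All 65 tested ribosome biogenesis genes were called higher, with a median log2 change of 2.82 and a range of 1.00 to 3.94, and under the alternatives run 62 to 65 were. Ncl (nucleolin), on chromosome 1 (86344719 to 86359400, minus strand, ENSMUSG00000026234), rose from 947 ± 66.7 to 10180.2 ± 228 CPM (mean ± SD), the largest gain in CPM among called genes. The processing factors Rrp1b and Noc4l rose by 3.94 ± 0.10 and 3.79 ± 0.19, the snoRNP proteins Fbl and Dkc1 by 2.36 ± 0.22 and 2.94 ± 0.15, and the RNA polymerase I subunit Polr1b by 3.44 ± 0.21.

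For the proteins of the ribosome itself nearly all transcripts were not called. Of 80 cytosolic ribosomal protein genes, 1 was called, Rps27l at 1.97 ± 0.15, and the list's median of 0.15 fell to -0.01 with library totals as the scaling. Rplp0 had 2755, 3508 and 2448 normalised counts in the controls and 3538, 3132 and 2871 at 80 µg. Many of these genes have near-identical processed copies, so single values are uncertain. Of 39 translation initiation factors, 29 rose (median 1.79); Eif5a rose by 3.47 ± 0.10, Eif4e, the cap-binding protein, by 2.60 ± 0.14 and Eif4a1 by 1.79 ± 0.15. The only one lower was Pdcd4, an inhibitor of Eif4a1 (1189, 1297 and 1330.5 to 186, 127 and 177). Of 22 regulators of mRNA decay 5 rose and 4 fell, with 1 higher when library totals set the scaling. These shares, 22.7% and 18.2%, were near the 18.4% and 25.1% of all tested genes.

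Of 35 genes for amino acid transport, the ATF4 response and tRNA synthetases, 28 rose and 2 fell (median 2.22). The transporters Slc7a5 and Slc3a2, which together form the leucine carrier, rose by 3.91 ± 0.36 and 2.53 ± 0.17, and Slc7a1 by 3.27 ± 0.11. All 14 tRNA synthetases listed rose, from Sars at 1.09 to Aars at 2.48. Shmt1, of the folate cycle, went from 6.18, 11.2 and 11.4 to 1023, 1114 and 1040.0 and Bcat1, a branched-chain aminotransferase, was 353-fold (95% counting interval 121 to 1716) higher. The stress genes Ddit3 (CHOP) and Trib3, which ATF4 is also known to induce, were the 2 that fell (-1.47 ± 0.32 and -2.10 ± 0.83), and the call of Trib3 was lost without control replicate 1 or 3 or any one library at 80 µg (-1.70 to -2.19).

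Most genes of protein folding and turnover rose. Chaperones were 23 of 30 higher and 1 lower (median 2.16), among them all 8 subunits of the CCT chaperonin from Cct4 at 1.58 to Cct6a at 2.53, and the mitochondrial Hspd1 (179, 241 and 127 to 2259, 2360.3 and 2388 normalised counts). The heat shock genes Hspa1a and Hspa1b, near-identical to each other, stayed near 0. In the ER list 16 of 27 rose and 3 fell (median 1.21), and Hspa5 (BiP) gained from 241 ± 24.8 to 2289 ± 54.0 CPM. Proteasome genes were 27 of 37 higher and 3 lower (median 1.40). The 3 that fell were Psmb8, Psmb9 and Psmb10 (-1.60 ± 0.11, -1.36 ± 0.23 and -1.83 ± 0.23), the catalytic subunits of the immunoproteasome, whereas their constitutive counterparts Psmb5, Psmb6 and Psmb7 rose by 1.45 ± 0.25, 1.57 ± 0.15 and 1.85 ± 0.17.

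**Figure D3:**
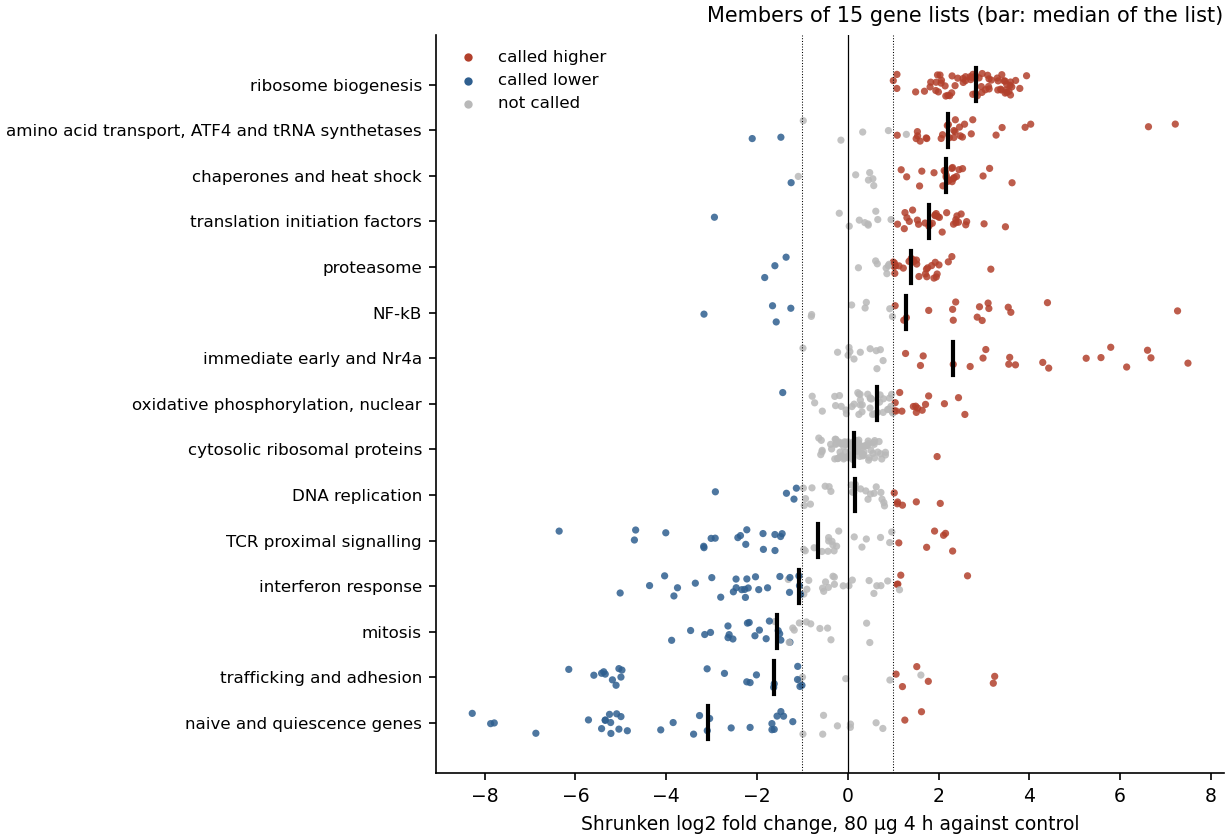
Shrunken log2 fold change of 80 µg 4 h against control (x axis) for each tested member of 15 gene lists (rows), coloured by call, with a black bar at the list's median. The ribosome biogenesis genes lie wholly to the right of 1, the cytosolic ribosomal proteins gather around 0, and 30 of the 40 naive and quiescence genes are called lower.

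Metabolic lists were mixed. In glycolysis 11 of 25 rose and 5 fell (median 0.80). Hk2, the inducible hexokinase, rose from 12.4, 2.03 and 2.86 to 1072, 1064 and 1134 normalised counts, Ldha from 475, 375 and 493 to 2514, 2577 and 2764, Pkm by 2.24 ± 0.11 on the log2 scale and the lactate carrier Slc16a1 by 3.60 ± 0.17. Slc2a1 (GLUT1) rose by 1.37 ± 0.26, and Pdk1, which holds pyruvate from the mitochondria, fell by 3.71 ± 0.16. Gapdh has many processed copies and its counts are uncertain. Nuclear genes of oxidative phosphorylation were 15 of 55 higher and 1 lower (median 0.65), with Cycs (cytochrome c) at 2.58 ± 0.26.

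Purine and pyrimidine synthesis rose in 15 of 23 genes and fell in 3 (median 1.35; 5 fell without control replicate 1 or with library totals as the scaling). Ctps, Umps and Cad, which make pyrimidines, rose by 3.60 ± 0.19, 3.09 ± 0.21 and 3.02 ± 0.19. Those lower included Ctps2 and the thymidylate synthase Tyms (-4.43 ± 0.39 and -1.54 ± 0.35). Sterol and fatty acid synthesis held 8 higher and 12 lower of 35 (median -0.60). With library totals as the scaling 5 were higher, and without 80 µg replicate 2 or control replicate 1 the median was -0.30 or -0.34. Fasn and Acaca, of fatty acid synthesis, rose by 2.13 ± 0.15 and 2.15 ± 0.22, the sterol enzymes Mvd and Mvk fell by 2.72 ± 0.45 and 2.88 ± 0.64, Cyp51, a later sterol enzyme, rose by 1.32 ± 0.22, and the sterol exporters Abca1 and Abcg1 fell by 2.63 ± 0.70 and 3.97 ± 0.42. Mt1 and Mt2, the metallothioneins, were uncounted or nearly so in the controls and at 109, 37.8 and 103 and 94.9, 63.9 and 113 after peptide.

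At 4 h, cyclins of early G1 had changed but the replication and mitosis genes had not risen as groups. Ccnd2 (cyclin D2) went from 1398 ± 23.7 to 9016 ± 88.4 CPM, a gain exceeded only by that of Ncl. Its sister Ccnd3 fell from 741, 944 and 819 to 61.3, 64.9 and 48.9 normalised counts. Cdk4 and Cdk6 rose by 2.05 ± 0.16 and 3.43 ± 0.13 on the log2 scale and the CDK inhibitor Cdkn1a (p21) by 4.65 ± 0.62, while Cdkn2d and the pocket protein Rbl2 fell by 3.80 ± 0.32 and 5.13 ± 0.31. Over the G1 list 7 of 21 were higher and 10 lower.

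Of 33 DNA replication genes 6 rose and 4 fell (median 0.17), that is 18.2% and 12.1%, beside 18.4% and 25.1% of all tested genes. With library totals as the scaling 3 rose and 6 fell (median 0.02, the lowest of a range up to 0.35 over the alternatives). Pole, a subunit of the leading-strand polymerase, rose by 2.04 ± 0.45 and Pcna by 1.21 ± 0.14, while Mcm7 (0.08 ± 0.16) and Mcm3 (0.80 ± 0.16) were not called and Lig1 fell by 1.35 ± 0.20. Of 30 mitosis genes, 18 fell (median -1.57, or -1.51 with the gene at 0 set to its bound). Over the alternatives the median ran from -2.46 to -0.78 and 10 to 20 fell, fewest when only these 6 libraries were fitted. These genes were low throughout: Mki67 had 22.7, 33.5 and 51.4 in the controls and 2.31, 0.97 and 8.57 at 80 µg, Top2a 78.3, 89.2 and 128 and 56.7, 28.1 and 17.1. Among chromatin genes, where 6 of 21 rose and 7 fell, the H3K27 demethylase Kdm6b rose by 3.42 ± 0.14 and the de novo methyltransferase Dnmt3a by 1.88 ± 0.12, while Dnmt1 and Tet1 fell by 1.84 ± 0.19 and 4.97 ± 0.46.

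In the interferon response more genes fell than rose. Of 49 tested genes, 25 fell and 4 rose (median -1.06). Ddx58 (RIG-I), a sensor of viral RNA, had 417, 474 and 458 normalised counts in the controls and 17.4, 13.6 and 1.71 at 80 µg, and Ifit2 had 156, 223 and 207 in the controls and 11.6, 3.87 and 10.3 at 80 µg. Ifi213 and Mndal, of the family with Ifi203, fell by 4.03 ± 0.42 and 2.52 ± 0.15 on the log2 scale, and Irf7 by 2.27 ± 0.37. The 4 that rose were Isg15 and the GTPases Gbp2, Gbp5 and Iigp1, of which Gbp5 went from 45.4, 49.7 and 28.6 to 289, 270.2 and 250.4 and Iigp1 from 97.9, 151 and 159.9 to 457, 289.6 and 201. Without control replicate 1, Isg15, Gbp2 and Iigp1 were at 0.94, 1.00 and 0.98 on the log2 scale and 2 of the list rose, and without 80 µg replicate 1 Gbp2 and Iigp1 were at 0.81 and 0.82. Members of these families share sequence, and reads between them may be misassigned. In the MHC class I list 9 of 19 fell and 2 rose (median -0.89), with H2-D1 (-0.41 ± 0.12) and B2m (0.11 ± 0.08) not called and Tap2, the peptide transporter, lower by 2.11 ± 0.34. Of 8 Gimap GTPases, 3 fell (6 with library totals as the scaling) and Gimap5 rose (1.16 ± 0.16).

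**Figure D4:**
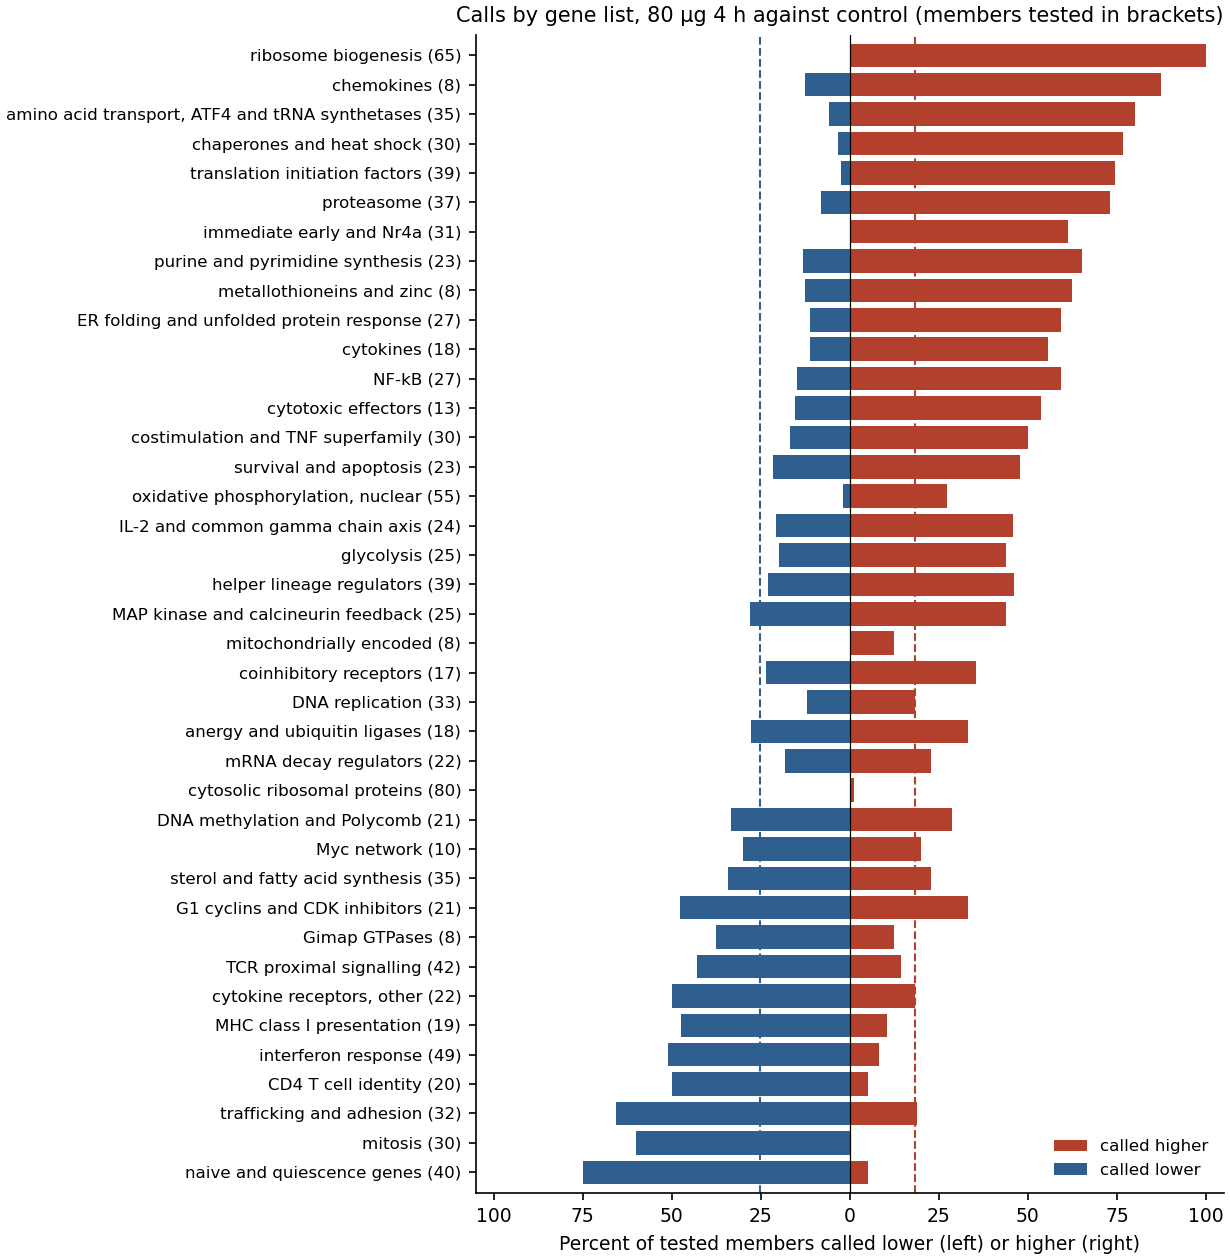
Percent of the tested members of 39 gene lists called higher (right, red) or lower (left, blue) at 80 µg 4 h against control, with the number tested in brackets and dashed lines at the 18.4% and 25.1% of all tested genes called in each direction. Ribosome biogenesis, with every tested member called higher, and the naive and quiescence genes, with 75.0% called lower, stand at the ends.

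The largest loss in CPM among called genes was that of Malat1, a nuclear long non-coding RNA on chromosome 19 (5795690 to 5802672, minus strand, ENSMUSG00000092341), which went from 15328 ± 1412 to 5762 ± 314 CPM. Tmsb4x (thymosin beta 4), which binds actin monomers, went from 3512 ± 574 to 436 ± 78.5. The T cell factor Bcl11b fell from 1287 ± 79.4 to 177 ± 18.4 CPM, Smc4, a condensin subunit, from 1382 ± 31.2 to 125 ± 5.72, and Fyb (ADAP), an adaptor that links the TCR to integrins, from 988 ± 40.6 to 20.0 ± 5.15. The other losses in the top 10 were Shisa5, Macf1, Limd2, Ms4a4b and Jak1. Beside Ncl, Ccnd2, Hspa5 and Nfkbia, the gains were Hsp90ab1, Serbp1, Irf8, Npm1, Ddx21 and Pabpc1 (its call was lost without control replicate 1, at 0.95, or without 80 µg replicate 1, at 0.99), of which Irf8 went from 19.5 ± 8.87 to 3251 ± 96.7 CPM and the RNA helicase Ddx21 from 330.1 ± 30.8 to 2439.7 ± 37.8. Npm1 and Hsp90ab1 have processed copies elsewhere in the genome.

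Among the 10 largest falls, Gm14085 was at 0 in all libraries at 80 µg and at 215, 336 and 497 in the controls, at least 117-fold lower, and Card6, Slc16a5 and Gm11346 were at least 93.6-fold, at least 41.3-fold and 236-fold lower. Cmah, the enzyme that makes N-glycolylneuraminic acid, fell from 450.4, 647 and 531 to 3.47, 2.91 and 0 normalised counts and Smpdl3a was 287-fold (95% counting interval 79.0 to 2377) lower. Among the largest rises, Smim3 was 344-fold (95% counting interval 94.8 to 2841) higher. Gm12534, at 0 in the controls and at 167, 129 and 145 at 80 µg, is annotated antisense to Il21 with overlapping exons, and since the strand setting of the counting is not given in the sources used here, its reads and those of Il21 cannot be told apart.

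Short motifs were counted on both strands of the 300-base RefSeq promoters (GRCm38.p6; 250 bases before and 50 after the first listed start) of the 9188 tested genes that could be matched by symbol. The E-box CACGTG, which Myc and Max bind among others, was in 15.1% of the promoters of genes called higher, 8.78% of those called lower and 10.6% of all. The CRE TGACGTCA was in 4.08%, 2.39% and 3.44%, the AP-1 letters TGAGTCA in 3.11%, 2.91% and 3.11%, the EGR site GCGTGGGCG in 1.5%, 1.2% and 1.27%, and the NR4A element AAAGGTCA in 0.698%, 0.958% and 0.849%. A match is a description of the letters in this window and not of binding.

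The 0.8 µg group at 4 h, sorted through the same gate, gives the same contrast at a lower dose. Against control it called 40.7% of the tested genes (17.3% higher and 23.4% lower), and since both doses share the control libraries, their values are set side by side. At 0.8 µg, 64 of 65 ribosome biogenesis genes were called higher, with a median log2 change of 2.74 beside 2.82 at 80 µg. Ncl had 37936, 36827 and 37312 normalised counts at 0.8 µg and 37524, 37667 and 38739 at 80 µg, and Cd69 had 2011, 2474 and 2218 at 0.8 µg and 2711, 2211 and 2260.1 at 80 µg. For both genes the values of the doses were close together beside those of the control.

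Tested directly, 80 µg against 0.8 µg called 635 of 10848 genes (5.85%), 338 higher (3.12%) and 297 lower (2.74%). The balance depended on the setting, with 630 higher and 671 lower by adjusted p alone. A fit to only the libraries compared gave 293 higher and 184 lower. Cytokines and lineage factors were more often higher than lower at the high dose. Among 39 lineage regulators 19 were higher at 80 µg and 7 lower, and among 13 tested cytokines 5 and 1. Il2 had 169, 191 and 106 normalised counts at 0.8 µg, a log2 difference of 3.21 ± 0.33 (SE) from 80 µg, and Irf8 had 3172, 4306 and 2889.8 (1.80 ± 0.14). Rora was at 104, 175 and 54.0 and Tbx21 at 164, 150.2 and 135, with differences of 3.55 ± 0.50 and 2.28 ± 0.25. All values at 80 µg lay above all values at 0.8 µg for these 4 genes. Among genes called against control that averaged 50 normalised counts or more in the higher group, the 5 largest increases with dose were those of Gm12534, Il21, Gm43822, Mt2 and Ctla4. Gm12534 overlaps Il21 (chromosome 3, 37222759 to 37232636), and Gm43822 lies beside it (37232867 to 37233342), so these may not be separate signals. Ctla4 had 4.04, 5.27 and 1.08 at 0.8 µg (5.93 ± 0.55). The other 4 were at or near 0 at 0.8 µg, with 1.01, 1.32 and 0 for Il21 and 0, 1.32 and 0 for Mt2, and Gm12534 and Gm43822 had no count there. Gm43822, at 68.3, 57.1 and 35.2 at 80 µg, lost its call without any one of these libraries (1.95 to 2.01).

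Other genes were lower with the high dose. Tnnt2, cardiac troponin T, had 616, 437 and 546 normalised counts at 0.8 µg and 77.5, 56.2 and 71.2 at 80 µg. Rel had 3326, 2820.4 and 3231 at 0.8 µg and 1483, 1651 and 1395 at 80 µg, a call lost without 0.8 µg replicate 1 or 80 µg replicate 3 (log2 differences above -1 in both). Tnfrsf9 had 1976, 1806 and 2050.3 at 0.8 µg and 785, 687 and 757 at 80 µg. With Tnnt2 (-2.93 ± 0.26), the 5 largest decreases by the same rule were those of Gtf2ird1 (-3.49 ± 0.36), Csrp1 (-2.94 ± 0.32), Akna (-2.91 ± 0.37) and Cdon (-2.88 ± 0.35). Egr1, uncalled at 80 µg against control, had 479, 613 and 586 at 0.8 µg (-1.62 ± 0.23 for 80 µg against 0.8 µg). In the sterol list 13 of 35 genes were lower at 80 µg and Elovl6 higher. Hmgcs1, an early enzyme of the pathway, had 887, 595 and 1199.9 at 0.8 µg against 242, 236 and 285 at 80 µg and 236, 228 and 286 in control. Against control at 0.8 µg, 12 sterol genes were higher and 5 lower, with a median of 0.60.

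In the interferon list 16 of 48 tested genes were higher at 80 µg than at 0.8 µg. Samd9l was lower, a call lost without 80 µg replicate 3 (-0.85). Against control, 0.8 µg had 35 of these genes lower. Igtp, an interferon-gamma-induced GTPase, had 346, 435 and 427 in the controls, 178, 136 and 126 at 0.8 µg and 742, 622 and 527 at 80 µg. Of 189 genes for ribosome biogenesis, translation initiation, chaperones and oxidative phosphorylation, 0 were called between the doses by DESeq2 or by edgeR, and 30 had an unadjusted p under 0.05 in DESeq2. The TCR proximal list had 11 genes lower at 80 µg than at 0.8 µg and 2 higher, among them Cd4 (-1.93 ± 0.14), Lck (-1.09 ± 0.09), Rasgrp1 (-1.98 ± 0.15) and Dgka (-1.52 ± 0.22) lower.

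**Figure D5:**
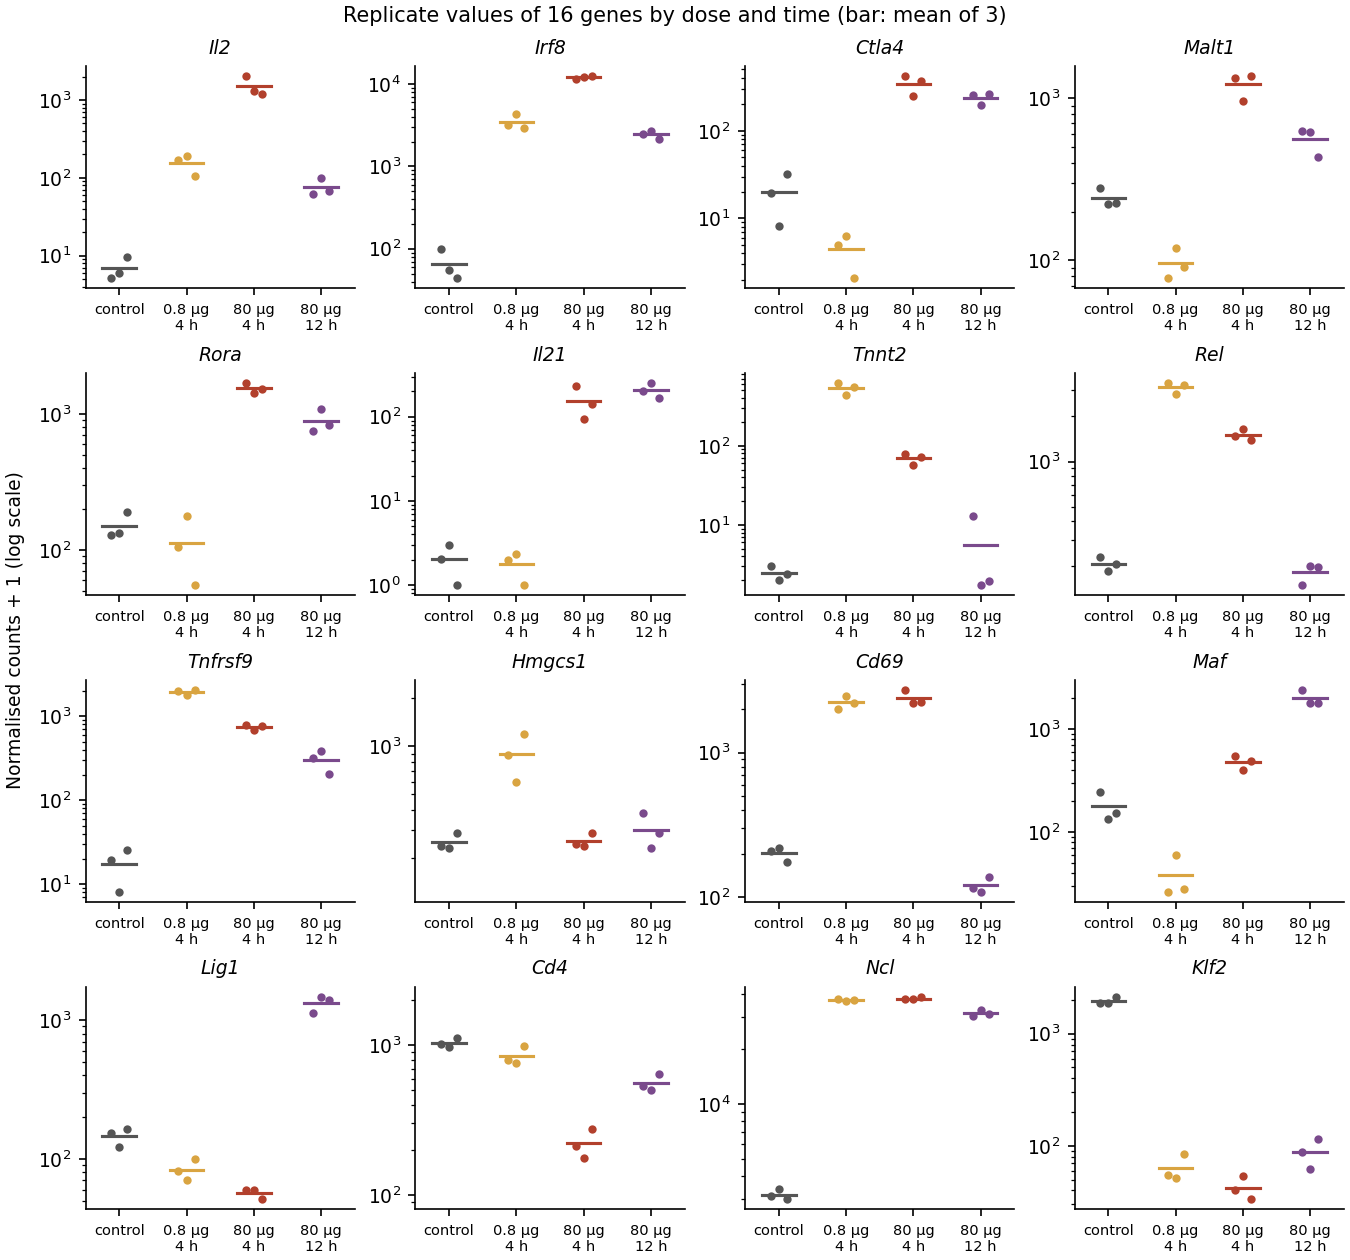
Normalised counts + 1 (y axes, log scale, each panel with its own range) of 16 genes in the 3 libraries each of control, 0.8 µg 4 h, 80 µg 4 h and 80 µg 12 h, with bars at the mean. Il2, Irf8 and Rora are higher at 80 µg than at 0.8 µg, Tnnt2, Rel, Tnfrsf9 and Hmgcs1 are lower, Ncl and Cd69 lie close together at both doses, and Lig1 is low until 12 h.

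The 80 µg group at 12 h was compared with the same dose at 4 h. It was sorted as Blue+Red+ rather than Blue+Red-, so time and gate cannot be told apart. Of 12628 genes, 3130 (24.8%) were called, 1981 higher (15.7%) and 1149 lower (9.1%) at 12 h. The early genes came down: 21 of 31 immediate early genes and 17 of 27 NF-kB genes were lower at 12 h. Nr4a1 was at 122, 41.8 and 145 normalised counts at 12 h and Il2 at 60.3, 97.6 and 67.1, below every value at 4 h. Il2 remained above every control value, whereas Nr4a1 overlapped the controls. Tnfaip3 was at 21.01, 15.4 and 20.4 and Cd69 at 115, 108 and 138, all under their lowest control library. By the same rule, the 5 largest decreases were those of Samd4 (-6.06 ± 0.64), Nr4a2 (-5.42 ± 0.25), Ccl4 (-5.40 ± 0.44), Ndrg1 (-4.86 ± 0.31) and Tnfaip3 (-4.84 ± 0.24).

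Of 65 ribosome biogenesis genes 2 were lower at 12 h than at 4 h, and Ncl was at 30346, 32749.9 and 31204. Il21 was at 199, 249 and 165 and Ctla4 at 256, 195 and 262, neither called between the times, and Maf was higher, at 2372, 1770.4 and 1797 against 543, 396 and 490.4. Of 33 DNA replication genes, 32 were higher at 12 h: Lig1 went from 59.0, 59.1 and 50.6 at 4 h to 1122, 1465 and 1386, and 28 of 30 mitosis genes were higher. Among the 5 largest increases were those of Ccdc34 (6.16 ± 0.54) and of the replication and division genes Clspn (6.16 ± 0.52), Ticrr (5.92 ± 0.66) and Cdk1 (5.58 ± 0.55). The quiescence genes stayed low in part, with 13 of 40 higher and 6 lower at 12 h than at 4 h; Klf2 was at 86.8, 61.6 and 114 and Ccr7 at 1128, 923 and 802, of which Ccr7 was nearer to its control values of 1173, 1139 and 1363.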

How the data were processed

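RNA of splenic CD4+ T cells was sequenced from the 3′ end (QuantSeq FWD) in 21 libraries, 7 groups of 3. The authors trimmed the reads, aligned them with STAR 2.5.2a to GRCm38 and counted them per gene with HTSeq. Annotation release, strand setting and handling of molecular identifiers are not given in the sources used here. The deposited table holds raw counts for 47643 genes, with no summary rows. The authors also deposited log2 values (DESeq2's rlog), used here only as an alternative and for the symbols of 15249 genes.

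Following the study's methods, genes with at least 10 counts over all samples were fitted in DESeq2 1.42.0 (R 4.3.3), with all 21 samples in one fit so that the spread is shared. Log2 changes were shrunken (normal prior), and calls needed an adjusted p under 0.05 and a log2 change beyond 1. Counts are divided by size factors for the values shown per library. The p-values rest on a spread between libraries of the same group that is estimated over all 7 groups and moderated across genes. It is not the spread of the control and 80 µg 4 h libraries alone. A fit to only these 6 libraries gave 5665 calls in place of 5881. A fold against a group at 0 used a floor of 3 counts per library and is a lower bound, and groups with 1 to 3 counts have a ratio with a 95% counting interval. Intervals and floors cover counting error only.

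Genes named are the 10 largest rises and falls (averaging 50 or more normalised counts over the 6 libraries, groups not overlapping), the 10 largest gains and losses in CPM among called genes, members of the 46 gene lists (for lists over 45 genes the largest changes, with further examples chosen after their values were seen), and the 5 largest differences each way from 0.8 µg and at 12 h. A few genes that the rule names are not reported here. The genes' grouping and lists were chosen with earlier results of these data known. Locations are from a GENCODE annotation of GRCm38, where exons of 112 of 308 named genes overlap another gene, 95 of them one on the opposite strand. Promoter sequences are RefSeq's (GRCm38.p6).

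Alternatives were edgeR 4.0.16 and limma 3.58.1, other filters, scalings and thresholds, thinning, a replicate term and leaving out each library. Counts of 13818 genes were simulated with the control group's means in all 21 samples and the samples' size factors. At 80 µg 4 h, 100 genes were changed by 2 on the log2 scale and 100 by 3. The test against control recovered 73 and 85 of them, with 0 false calls. There, the shrunken log2 changes understated the simulated ones, with a median ratio of 0.659 and 0.641 at the 2 sizes. Only genes above a minimum control mean were changed, far fewer than the 43.5% of tested genes called in the data. These rates and ratios therefore describe the simulation and not this comparison. In the libraries themselves the effect of shrinkage differed between lists. The median of the ribosome biogenesis list was 2.815 shrunken and 2.834 unshrunken, and that of the chemokines was 3.77 and 6.721.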

Additional observations from a re-analysis of the deposited data

Results flagged for a closer look

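At 4 h, 16 genes were called in opposite directions against control at the doses of 80 µg and 0.8 µg, where 43.5% and 40.7% of the tested genes were called. The same control libraries enter both comparisons, and the way the genes were picked sets the doses apart, so the differences between the doses are given as a description. Of the 15 that were higher than control at 80 µg and lower at 0.8 µg, Ctla4 had the largest log2 difference of 80 µg against 0.8 µg, 5.93. Its 3 libraries had 18.6, 7.10 and 31.4 normalised counts in the control, 4.04, 5.27 and 1.08 at 0.8 µg and 417, 249.9 and 364 at 80 µg. Other immune genes were Malt1 at 3.66, the chemokine receptor Cxcr3 at 2.91, the adhesion molecule Jaml at 3.35, the G protein regulator Rgs1 at 3.13, the cytotoxic granule gene Nkg7 at 2.79 and the semaphorin receptor Nrp1 at 2.89. The transcription regulators Maf and Id2 differed by 3.56 and 2.27 and the interferon-induced GTPases Gbp2 and Iigp1 by 2.69 and 2.90. Crybg1, Cpd, A230072C01Rik and Gm43237 completed the 15, at 4.92, 3.57, 4.98 and 2.80. Crybg1 had 159.8, 155 and 196 in the control, 20.2, 6.59 and 10.8 at 0.8 µg and 498, 279 and 526 at 80 µg. The adaptor Stap1 ran the other way, at -2.25, with 334, 250.5 and 385 in the control, 759, 562 and 674 at 0.8 µg and 148, 133 and 134 at 80 µg.

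Some of these calls against control were less firm. Values at 80 µg overlapped the control values for Nrp1 and Nkg7, and values at 0.8 µg did so for Cxcr3 and Nkg7. The call at 80 µg was lost for Cxcr3 and Nrp1 without control replicate 2 (log2 changes 0.81 and 0.95), for Cpd without 80 µg replicate 2 (1.13), for Nkg7 without control replicate 1 (0.91) or 80 µg replicate 1 (0.40), and for Gbp2 and Iigp1 without control replicate 1 (1.00 and 0.98) or without 80 µg replicate 1 (0.81 and 0.82).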

How the results depend on the processing

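The comparison of 80 µg 4 h with control gave 5881 calls, 5107 (limma on the rlog values) to 7717 (adjusted p alone) under the alternatives and 5578 to 5643 without any one replicate. edgeR called 6147 genes, among them 99.3% of the 5881 in the same direction, and no alternative called a gene in the opposite direction. Library totals as size factors left 36.4% of the calls higher, against 42.2%. With adjusted p alone, the dose comparison rose from 635 calls to 1301 (630 higher, 671 lower) and the comparison of 12 h with 4 h from 3130 to 5415 (2980 higher, 2435 lower). A fit to only the 4 h libraries compared left 184 genes lower at 80 µg than at 0.8 µg in place of 297. Without any one replicate the dose comparison gave 529 to 642 calls and the comparison of times 2872 to 2984. Of 46 gene lists, 5 had a median whose sign changed under an alternative. Library totals cut the genes called higher from 5 to 1 among mRNA decay regulators, from 8 to 5 in sterol and fatty acid synthesis, from 6 to 3 in DNA replication (with 6 lower in place of 4) and from 4 to 2 in the interferon response, and raised those called lower from 3 to 6 among Gimap GTPases.

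Replicates of the same number share only that number: the correlations of their deviations from the group means were -0.0504, 0.034 and -0.0295. With the replicate number as a block, 5794 genes were called between 80 µg 4 h and control, 611 between the doses and 3066 between the times. The libraries hold as few as 2352800 counts, and thinning all of them to that depth left 5567 calls. Genes near the floor of 3 counts per library are not resolved.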
